A study of Mus musculus with 20 samples.

Results

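The contacts of *Tlx1* were followed through the 6 capture Hi-C maps of the *Lbx1*/*Fgf8* locus in E11.5 mouse limb buds. The bin pairs were chosen by position alone: every pair with 1 bin in a 10 kb window over *Tlx1* (mm9, chr19:45225001-45235000) and the other bin anywhere in the captured interval (chr19:44440001-46400000), in bins of 5 kb. This gave 777 of the 75855 pairs that the bins with values can form in the wild-type and inversion maps, and 773 of 75078 in the *Dup* maps, in which more low-coverage bins carry no value. The main partners were the *Lbx1* TAD (chr19:45290001-45615000, 65 bins) and the interval of the *Fgf8* AER enhancers (chr19:45655001-45705000, 10 bins). A TAD, or topologically associating domain, is a stretch of chromosome whose parts contact each other more than their surroundings, and the AER, or apical ectodermal ridge, is the signalling epithelium at the rim of the limb bud.

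The 20 libraries were made from whole forelimb and hindlimb buds together, so each map averages over mixed cell types. The wild-type embryos have the strain label c57bl6.J, and all mutant embryos have the strain label G4 ESC, the embryonic stem cell line that was edited and aggregated into embryos, so allele and strain background cannot be told apart. Homozygous *Dup* carried a 541 kb tandem duplication, homozygous *Inv1* a 123 kb inversion and homozygous *Inv2* a 460 kb inversion on both chromosomes, and heterozygous *Dup* and *Inv1* carried the allele on 1 chromosome. Biological replicates numbered 3 for every genotype except heterozygous *Dup*, which was a single library whose title says *Dup* while another label says inversion, and 1 technical replicate was added for the wild-type and for the 3 homozygous mutants. Replicates were merged in the deposited maps, so no difference below could be tested against the spread between limb buds, and each value stands with a 95% interval that covers counting error only.

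*Tlx1* encodes a homeobox transcription factor best known for its need in spleen development and for its activation in T-cell leukaemia. *Lbx1*, its neighbour in the locus, is another homeobox gene, known for its role in muscle precursors that migrate into the limb and in spinal cord interneurons. *Fgf8* encodes a growth factor that the AER secretes to keep the limb bud growing. In capture Hi-C, nuclear DNA is crosslinked, cut with DpnII and ligated, so that read pairs joining distant fragments count how often these lie close together. Expression of *Tlx1* was not measured in these files.

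*Tlx1* (ENSMUSG00000025215.8) lies on the plus strand at chr19:45223726-45231433. In this annotation its first exon starts in the bin before the window (chr19:45220001-45225000), while its start codon at 45225406, the rest of exon 1 and exons 2 and 3 lie within the window. The window also holds Gm20424, an antisense processed transcript (chr19:45228547-45233794). The gene lies outside all 3 rearrangements. The CRISPR guides that made them each had 1 exact match on chromosome 19, and the matches fix how far each breakpoint is from *Tlx1*. Below, each target is read 5′ to 3′ from the mm9 genome, with the PAM in capitals.
Dup centromeric target, chr19:45251628-45251650, minus strand: cccaggaatcgccgatgacaGGG
Inv2 centromeric target, chr19:45332272-45332294, plus strand: ctgacatttagctgtgatcgGGG
Inv1 centromeric target, chr19:45611034-45611056, plus strand: ggcctcaatacacctccatgGGG
Inv1 telomeric target, chr19:45734085-45734107, plus strand: ggtgacaccagtattcctcgAGG
Dup and Inv2 telomeric target, chr19:45792720-45792742, minus strand: ttaaatttctccaagataagAGG

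The cut in the centromeric *Dup* target, after position 45251633, is 16.6 kb from the end of the *Tlx1* window. It is the nearest breakpoint to the gene, and the *Inv2* and *Inv1* cuts are 97.3 kb and 376.1 kb away. In *Dup*, the order along the chromosome is *Tlx1*, the first copy of the segment, the second copy, then *Fgf8*. The distance from *Tlx1* to the first copy is therefore that of the wild-type, while the second copy and *Fgf8* lie 541 kb farther away. In *Inv1*, the AER enhancers are turned around within the inverted segment, and in *Inv2* they are brought closer to *Tlx1* while most of the *Lbx1* TAD is carried away.

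The 6 maps held 3350758 to 13101700 read pairs in the captured interval, lowest in heterozygous *Dup*. The read pairs with an end in the window numbered 86184 in the wild-type, 125222 in homozygous *Dup*, 142672 in *Inv1*, 149241 in *Inv2*, 31447 in heterozygous *Dup* and 100389 in heterozygous *Inv1*. Its bins were thus 1.19 to 1.42 times as deep as the median bin. The bins of the duplication held 2.12 times as many read pairs as the other bins in homozygous *Dup* and 1.65 times in heterozygous *Dup*, against 1.02 to 1.07 times in the other maps.

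In the wild-type, most contacts of *Tlx1* were with the centromeric side and the adjoining *Lbx1* TAD. A virtual 4C profile, the row of the window without the window itself and 5 kb on either side, placed 49.2% (48.9 to 49.6) of its signal on the centromeric flank, 20.8% (20.5 to 21.1) in the *Lbx1* TAD and 1.82% (1.72 to 1.92) in the AER enhancers. The flank beyond the telomeric *Dup* breakpoint took 10.5% (10.3 to 10.7). Signal was then divided by the mean of all wild-type pairs at the same distance. The *Lbx1* TAD as a whole was at 0.851 of that mean (0.837 to 0.866, 14417 read pairs) and the AER enhancers were at 1.24 (1.17 to 1.32, 1237 read pairs).

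*Fgf8*, 585 kb away, was the partner farthest above its distance. The 2 bins at its start (chr19:45810001-45820000) had 3.91 times the mean signal at that distance (3.6 to 4.26, 552 read pairs). Among 244 bins over 100 kb from the window with at least 50 read pairs, the highest was the bin with the *Fgf8* start (chr19:45815001-45820000, 4.09-fold), the second its neighbour within the gene (3.74-fold) and the third the next bin beyond it, with *Npm3* and *Oga* (3.26-fold). *Lbx1* itself was at 1.41 (1.33 to 1.48). *Btrc*, a ubiquitin ligase subunit within the *Lbx1* TAD, was at 0.678 (0.59 to 0.778). *Poll*, a DNA polymerase gene, and *Dpcd* and *Fbxw4*, near or over the enhancers, were at 1.61, 1.59 and 1.45. On the centromeric side, *Slf2* was at 0.522 (0.456 to 0.599) and *Twnk*, the mitochondrial helicase gene, at 0.719 (0.654 to 0.79). *Oga*, the enzyme that removes O-GlcNAc, lies just past *Fgf8* and was at 1.79 (1.57 to 2.03). *Pax2*, a paired box gene 395 kb away that was added after its values were seen, was at 1.66 (1.49 to 1.86).

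Neighbouring windows shared the contact with *Fgf8*. Relative to distance, it was 1.92 (1.73 to 2.14) in the 10 kb window 30 kb centromeric of the *Tlx1* window, 2.61 and 3.07 in the following windows, 3.91 over *Tlx1*, 3.44 (3.16 to 3.76) in the next window and 3.76 (3.46 to 4.09) in the window over the *Dup* breakpoint. The intervals of the last and of *Tlx1* overlap, so the contact was not particular to the gene. The following windows towards the *Lbx1* TAD were at 4.43 (3.26 to 6.02), 3.57 (3.17 to 4.02) and 3.28 (2.94 to 3.66). The contact of *Lbx1* with *Fgf8* was at 5.11 (4.76 to 5.48), above that of *Tlx1*. A second high window, at 3.25 (2.89 to 3.65), held *Kazald1*, 80 kb centromeric of *Tlx1*.

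**Figure D1:**
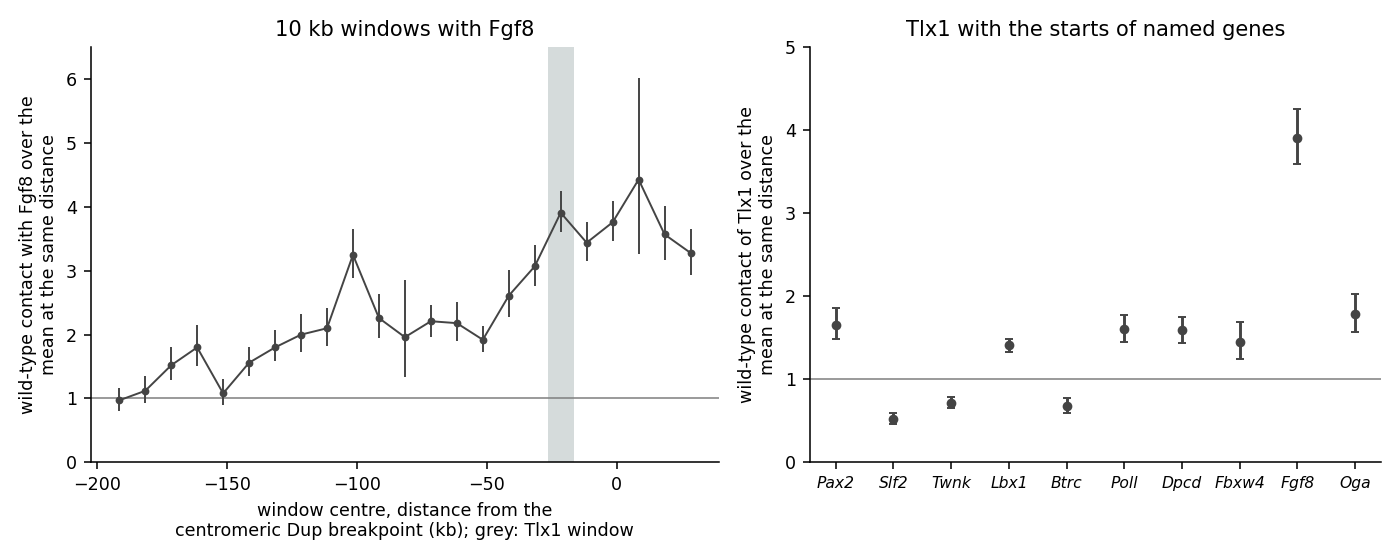
Left, wild-type contact of 10 kb windows with the 2 bins at the *Fgf8* start, divided by the mean signal of all pairs at the same distance, against the distance of each window's centre from the centromeric *Dup* breakpoint in kb; the grey band is the *Tlx1* window, at 3.91. Right, the same quantity for the *Tlx1* window and the starts of 10 genes in chromosomal order, where *Fgf8* stands above the others; bars are 95% counting intervals and the grey line marks 1.

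In homozygous *Dup*, the contact of *Tlx1* with the duplicated segment was slightly higher in the map that keeps the copy number. The deposited *Dup* values are LOIC-normalised, which leaves the bins of the duplication with 2 times the total signal of the others. On this scale the mean signal of *Tlx1* with the *Lbx1* TAD was 1.21 times that of the wild-type (1.18 to 1.23, from 24313 and 14417 read pairs) and that with the AER enhancers was 1.33 times (1.23 to 1.43, from 2370 and 1237 read pairs). Because read pairs of the 2 copies map to the same reference bins, both values sum over the copies. With the wild-type fall of contact with distance and the *Dup* order, a first copy at the old distance plus a second copy farther away gives 1.17 for the TAD and 1.32 for the enhancers. The measured values were 1.03 and 1.01 times these, and the 1.17 lies just below the measured TAD interval. The 20 bins centromeric of *Tlx1*, also outside the duplication, were farther from their values. They were at 1.4 (1.39 to 1.42) for the TAD against 1.2, and at 1.43 (1.39 to 1.48) for the enhancers against 1.34.

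The direction depended on the scale. When the *Dup* map was balanced so that every bin had an equal total, as in the wild-type map, the TAD was at 0.851 (0.833 to 0.87) and the enhancers were at 0.922 (0.857 to 0.993) of the wild-type. Balancing gives the duplicated bins the same total as the others, so the 2 scales measure different quantities. Heterozygous *Dup*, from 1 library, lay on the same side of 1 on the deposited scale, with 1.15 (1.11 to 1.18) for the TAD and 1.24 (1.11 to 1.38) for the enhancers, and was at 0.934 (0.905 to 0.963) and 0.995 (0.894 to 1.11) after balancing. Distance and copies alone give 1.08 and 1.16 in the heterozygote.

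**Figure D2:**
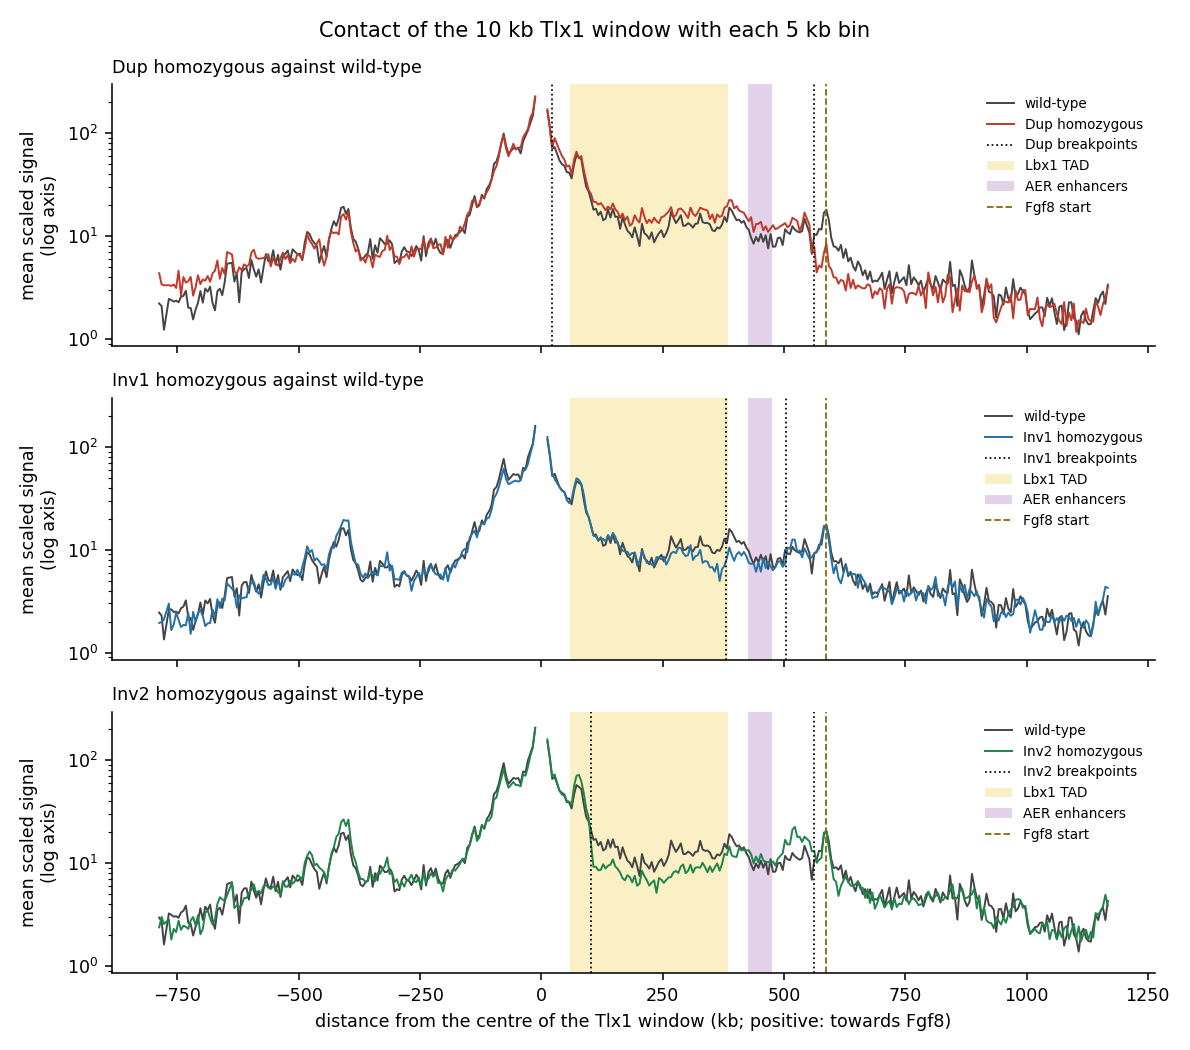
Mean scaled signal (log axis) of the *Tlx1* window with each 5 kb bin, against distance in kb from the centre of the window, in the wild-type (dark grey) and in homozygous *Dup* (top, LOIC values), *Inv1* (middle) and *Inv2* (bottom), each pair scaled jointly. In *Dup* the line runs above the wild-type between the breakpoints and below it past the telomeric breakpoint, and in *Inv2* it runs below the wild-type over most of the *Lbx1* TAD.

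Within the duplicated segment, the ratio of *Lbx1*, the gene nearest *Tlx1*, was the lowest of the 5 genes measured. On the LOIC scale *Lbx1*, 80 kb away, was at 1.02 (0.955 to 1.1), an interval that holds 1. *Btrc* was at 1.43 (1.21 to 1.69, 466 and 220 read pairs), *Poll* at 1.3 (1.15 to 1.47), *Dpcd* at 1.26 (1.11 to 1.42) and *Fbxw4* at 1.32 (1.09 to 1.6). Distance and copies give 1.11 for *Lbx1*, above its interval, and 1.19 for *Btrc*, just below its interval, while the intervals of *Poll*, *Dpcd* and *Fbxw4* hold their values of 1.27, 1.28 and 1.33. After balancing, *Lbx1* was at 0.715 (0.667 to 0.767), *Btrc* at 1.01 (0.853 to 1.19) and the other 3 genes at 0.869 to 0.908.

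The contact of *Tlx1* with *Fgf8* was lower in *Dup* than in the wild-type on both scales. The 2 *Fgf8* bins held 552 read pairs with the window in the wild-type and 319 in homozygous *Dup*, although the *Dup* map was deeper. Scaled to equal totals outside the duplication, the ratio was 0.356 (0.31 to 0.409) as deposited and 0.42 (0.366 to 0.483) after balancing, against 0.397 from the added distance. *Oga* was at 0.382 (0.307 to 0.476) against 0.434. The whole telomeric flank was at 0.5 (0.48 to 0.52), against 0.5 from distance. Its share of the virtual 4C profile was 10.5% in the wild-type and 5.2% (5.06 to 5.35) in homozygous *Dup*. Equal totals were used for these targets because pairs across the duplication, which enter the joint scaling of long distances, themselves became more distant. With the joint scaling, *Fgf8* was at 0.439 and the telomeric flank at 0.718.

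Heterozygous *Dup* had 53 read pairs between *Tlx1* and *Fgf8*, a ratio of 0.364 (0.274 to 0.484). The mean of the wild-type and homozygous values is 0.678, above the interval, and distance gives 0.699. *Oga*, at 0.706 (0.537 to 0.928), and the telomeric flank, at 0.802 (0.76 to 0.848), lay nearer the means of 0.691 and 0.75. The heterozygous *Fgf8* value rests on 1 library and on few read pairs.

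**Figure D3:**
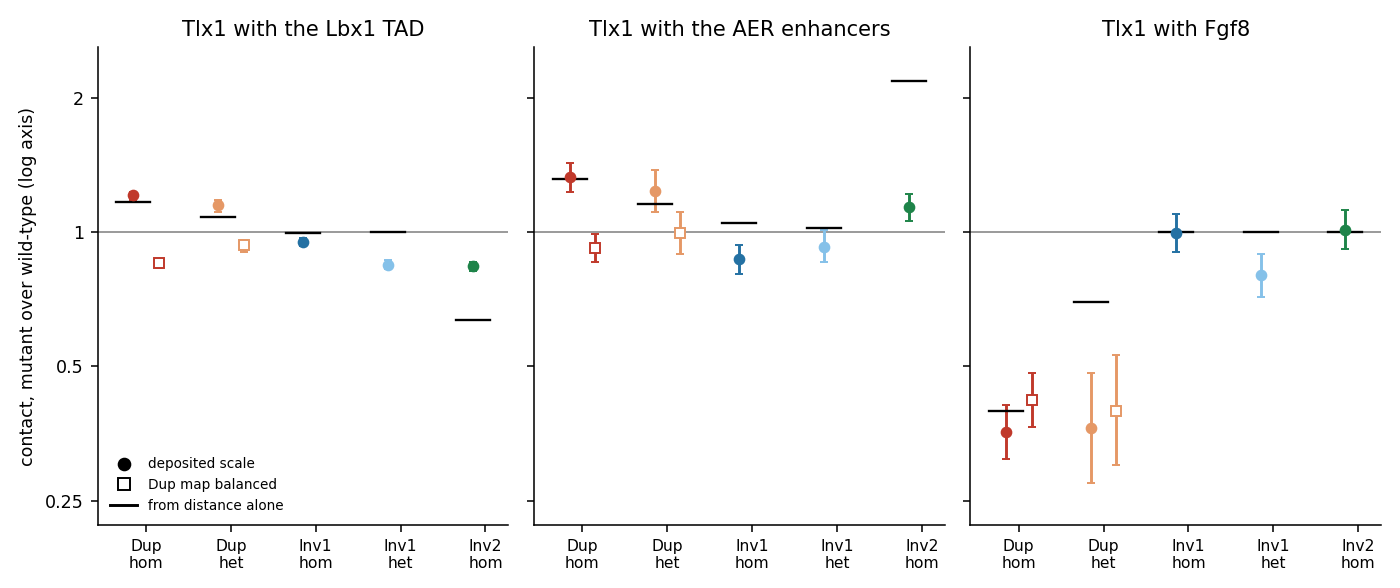
Contact of the *Tlx1* window with the *Lbx1* TAD, the AER enhancers and the *Fgf8* start in each mutant map (hom, homozygous; het, heterozygous), over that in the wild-type (log axis). Filled circles are the deposited scale, open squares the balanced *Dup* maps, bars 95% counting intervals and black lines the ratio from wild-type decay with distance; *Dup* circles lie near the black lines except for heterozygous *Dup* with *Fgf8*, and *Inv2* lies away from them for both intervals.

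*Tlx1* was then set beside the DNA around it, to see where along the chromosome the contact with the AER enhancers was higher in *Dup*. On the LOIC scale, homozygous *Dup* over wild-type was 1.37 in the 10 kb window before *Tlx1*, 1.33 over *Tlx1* and 1.24 in the window after it. It was 2.59 in the window over the breakpoint and 4.72, 4.73 and 4.29 in the windows inside the duplication. For the *Lbx1* TAD the same windows gave 1.27, 1.21, 1.21, 1.51, 2.33, 2.27 and 2.36. On the LOIC scale both ratios thus stepped up at the breakpoint, and *Tlx1* lay on the low side of the step. After balancing, the step remained for the enhancers, at 0.922 over *Tlx1*, 1.31 over the breakpoint and 1.86 to 2.03 inside. For the TAD there was no rise over the breakpoint, at 0.851 over *Tlx1* and 0.843 over the breakpoint. The windows inside, at 0.985 to 1.03, lay above *Tlx1* and its neighbours on either side, at 0.887 and 0.875. They were within the 0.875 to 1.14 of the other windows outside the duplication.

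For the enhancers the difference was larger than counting error. There, the ratio of the 5 kb bin of the breakpoint was 2.75 times that of *Tlx1* (2.47 to 3.07), and the ratio of the bins from the breakpoint to the TAD was 3.35 times that of *Tlx1* (3.07 to 3.66). The balanced map gave 1.72 (1.54 to 1.92) and 2.07 (1.9 to 2.26). For the TAD the same comparisons gave 1.48 (1.43 to 1.53) and 1.91 (1.86 to 1.96) on the LOIC scale, but 0.926 (0.895 to 0.958) and 1.18 (1.15 to 1.21) after balancing, so the breakpoint bin turned from above *Tlx1* to below it. The 3 bins between *Tlx1* and the breakpoint bin could not be told from *Tlx1* for the enhancers, at 0.961 (0.878 to 1.05) on the LOIC scale. In heterozygous *Dup* the ratio of the bins past the breakpoint was, for the enhancers, 2.08 times that of *Tlx1* (1.83 to 2.35). In homozygous *Inv1* and *Inv2*, which have no breakpoint there, the same bins were at 0.977 (0.89 to 1.07) and 0.991 (0.905 to 1.08) times *Tlx1* for the enhancers. For the TAD they were slightly below *Tlx1* in both, at 0.911 (0.886 to 0.937) and 0.919 (0.893 to 0.946).

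The bins inside are duplicated and *Tlx1* is not. Summing over both copies of each bin gives 5.27 for the bins from the breakpoint to the TAD with the enhancers, against 4.44 measured (4.24 to 4.66), and 2.47 for their contact with the TAD, against 2.3 (2.27 to 2.34). The window 40 kb centromeric of *Tlx1* stood slightly above it, at 1.54 for the enhancers, and the 3 windows farthest from the breakpoint were at 1.96 to 2.05. These 3 windows lie more than 541 kb from the enhancers, where pairs across the duplication enter the joint scaling. No value with equal totals was computed for them, so their height cannot be told from an effect of the scaling. For the TAD, *Tlx1* and the next window towards the breakpoint had the lowest ratios outside the duplication, both 1.21, while the other windows there were at 1.27 to 1.71.

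**Figure D4:**
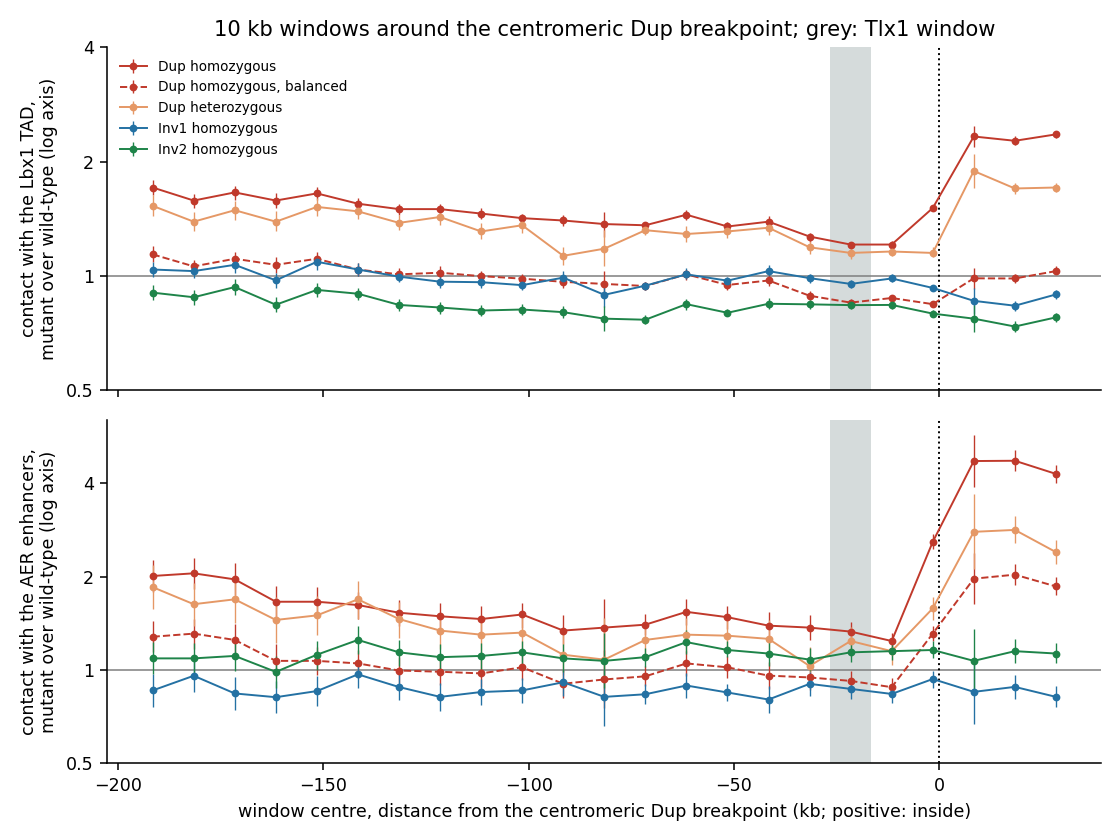
Contact of 10 kb windows with the *Lbx1* TAD (top) and the AER enhancers (bottom), mutant over wild-type (log axis), against the distance of the window centre from the centromeric *Dup* breakpoint in kb (dotted line; positive values lie inside the duplication). Points are single windows with 95% counting intervals and the grey band is the *Tlx1* window, where homozygous *Dup* is at 1.21 and 1.33 on the LOIC scale before it steps up to 2.33 and 4.72 inside.

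In homozygous *Inv1* the contacts of *Tlx1* were close to those of the wild-type. With the joint scaling, the TAD was at 0.953 (0.932 to 0.973) and the AER enhancers at 0.869 (0.807 to 0.936) of the wild-type, against 0.998 and 1.05 from distance. With equal totals both lay above 1, at 1.05 and 1.08, so neither direction can be given. *Lbx1* was at 1.04 (0.978 to 1.12), *Btrc* at 0.991 (0.836 to 1.18) and *Fgf8* at 0.998 (0.904 to 1.1), and with equal totals *Lbx1* was at 1.14 (1.06 to 1.21) and *Fgf8* at 1.31 (1.18 to 1.44). *Poll* and *Dpcd*, which the inversion carries to its far side, were at 0.768 (0.676 to 0.874) and 0.777 (0.686 to 0.88), near the 0.801 and 0.824 that distance gives, but with equal totals at 0.938 (0.825 to 1.07) and 0.953 (0.841 to 1.08). The bins at the *Fbxw4* start, most of which the inversion brings closer, were at 0.827 (0.686 to 0.998), or 1.05 (0.867 to 1.26) with equal totals, against 1.37 from distance.

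Heterozygous *Inv1* had 0.846 (0.826 to 0.866) for the TAD and 0.929 (0.858 to 1.01) for the enhancers. Its TAD ratio was lower than in the homozygote, whose mean with the wild-type is 0.976, and with equal totals it was 0.987. *Lbx1* was at 0.741 (0.688 to 0.798) in the heterozygote, and 0.861 (0.8 to 0.928) with equal totals. *Fgf8* was at 0.801 (0.717 to 0.895) and 0.982 under the same pair of scalings. For *Lbx1* the heterozygote thus lay below both the wild-type and the homozygote on either scaling, while for the TAD and *Fgf8* this held with the joint scaling only, since with equal totals the intervals (0.964 to 1.01 and 0.879 to 1.1) held the wild-type.

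In *Inv2*, contact was lower with the part of the *Lbx1* TAD that the inversion carries away. *Tlx1* contacted the TAD at 0.838 of the wild-type (0.82 to 0.857, 21728 and 14417 read pairs). Up to the breakpoint, where the order is unchanged, the TAD was at 1.21 (1.17 to 1.26), and past it at 0.662 (0.643 to 0.681). *Lbx1*, on the near side, was at 1.25 (1.17 to 1.33), and *Btrc*, on the far side, at 0.712 (0.593 to 0.854). Distance gives 1 and 0.439 for these genes.

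The AER enhancers, which *Inv2* brings towards *Tlx1*, were less far above the wild-type than distance gives. Their ratio was 1.14 (1.06 to 1.22, 2652 and 1237 read pairs), and 1.25 (1.16 to 1.34) with equal totals, against 2.19. The stretch between the enhancers and the telomeric breakpoint, the part of the inversion that comes to lie nearest *Tlx1*, was at 1.44 (1.37 to 1.53) against 3.97, and *Fbxw4* at 1.44 (1.21 to 1.73) against 3.32. *Poll* and *Dpcd* were at 0.869 (0.766 to 0.985) and 0.956 (0.848 to 1.08), where distance gives 1.56 and 1.62. Their shares of the virtual 4C profile, which is not jointly scaled, were 0.525% (0.486 to 0.566) and 0.561% (0.524 to 0.602). In the wild-type these shares were 0.54% (0.49 to 0.596) and 0.526% (0.479 to 0.578), so no loss of contact with *Poll* can be given. *Fgf8*, whose position relative to *Tlx1* does not change, was at 1.01 (0.915 to 1.12), and at 1.15 (1.04 to 1.27) with equal totals. The 3 bins between *Tlx1* and the *Dup* breakpoint were at 1.04 times the *Tlx1* value for the enhancers (0.95 to 1.14) and at 0.987 times for the TAD (0.96 to 1.02). For the TAD, the 20 bins on the centromeric side were at 0.972 (0.949 to 0.996) times the *Tlx1* value, and the bin of the *Dup* breakpoint at 0.938 (0.903 to 0.973).

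On the centromeric side, *Slf2* and *Twnk* could not be told from the wild-type in the homozygous mutants with the joint scaling. *Slf2* was at 0.881, 0.897 and 0.941 in homozygous *Dup*, *Inv1* and *Inv2*, and *Twnk* at 1.1, 0.999 and 1.02, and all 6 intervals held 1. The 100 kb next to the gene were at 1.02 (0.996 to 1.04), 0.899 (0.882 to 0.917) and 0.92 (0.902 to 0.937). *Pax2* was at 0.928 (0.802 to 1.07), 1.22 (1.07 to 1.39) and 1.39 (1.22 to 1.58). In heterozygous *Inv1*, however, *Pax2* was at 0.729 (0.628 to 0.846), on the other side of 1 from the homozygote. With equal totals it was at 0.868 (0.748 to 1.01) in this heterozygote and at 1.5 in homozygous *Inv1*. *Twnk* was at 1.13 (1 to 1.28) in the same heterozygote, and at 1.33 (1.17 to 1.5) with equal totals. The 100 kb next to *Tlx1* were there at 1.03 (1.01 to 1.05), and at 1.12 (1.1 to 1.14) with equal totals. None of these pairs is rearranged.

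Single target bins were counted as higher at 1.5-fold or more and lower at 0.667 or less, with at least 10 wild-type read pairs and the joint scaling, and set beside the share over all 10 kb windows of the map. In homozygous *Dup*, 29 of 381 bins were higher with *Tlx1*, where 40.3% of all window and bin pairs were, and 32 were lower, against 3.92%. Of the 29 higher bins, 20 lay in the centromeric flank, outside the duplication, against 5 of 65 bins in the TAD and 1 of 10 in the enhancers. Of the 32 lower bins, 30 lay in the telomeric flank. In *Inv1*, 6 of 382 bins were higher (5.19% of all) and 22 lower (6.39%). In *Inv2*, 12 were higher (8.31%) and 40 lower (8.5%), of which 27 lay in the TAD past the breakpoint. In heterozygous *Dup*, 30 of 381 bins were higher (30.5%) and 31 lower (7.98%), and in heterozygous *Inv1*, 10 of 382 were higher (5.07%) and 20 lower (7.75%). In the balanced *Dup* maps, 21 were higher (13.6%) and 28 lower (4.3%) in the homozygote, and 25 higher (13.2%) and 34 lower (9.85%) in the heterozygote. With the joint scaling the telomeric flank as a whole was at 0.718 in homozygous *Dup*, against 0.5 with equal totals, so the counts of lower bins there depend on the scaling. Pairs across the duplication also enter the joint scaling of centromeric bins more than 541 kb away, so the counts of higher bins there may depend on it too. These counts have no test, since there is 1 map per genotype.

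At a fold of 2, far fewer bins were called. In homozygous *Dup*, 5 were higher (24.3% of all pairs), all 5 in the centromeric flank, and 12 lower (1.16%), all 12 in the telomeric flank. In *Inv1*, 0 were higher (0.978%) and 0 lower (1.25%). In *Inv2*, 0 were higher (2.03%) and 2 lower (1.91%), both in the TAD past the breakpoint. Heterozygous *Dup* had 5 higher (10.5%) and 13 lower (3.81%), and heterozygous *Inv1* 1 higher (0.655%) and 2 lower (1.76%). The balanced maps had 3 higher (3.26%) and 8 lower (1.15%) in homozygous *Dup*, and 6 higher (2.88%) and 13 lower (4.35%) in heterozygous *Dup*. The share of higher *Tlx1* bins was thus far below that over all windows in the LOIC maps on both folds, and the share of lower bins, with the joint scaling, was above it in homozygous *Dup*. The share over all windows includes windows inside the duplication, whose copies raise the LOIC signal, while *Tlx1* lies outside it. No share over windows outside the duplication alone was computed, so this gap is not a result about *Tlx1*.

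The extreme bins showed the same layout. The 3 lowest bins of homozygous *Dup* were all past the telomeric breakpoint, with the joint scaling at 0.358 (0.289 to 0.444, chr19:45820001-45825000, with *Npm3* and *Oga*), 0.396 (0.28 to 0.561, within *Oga*) and 0.405 (0.233 to 0.703). The first was at 0.29 with equal totals. Its 3 highest, 2.72, 2.43 and 2.18, lay over 600 kb away at the centromeric end of the interval, the first on 32 and 16 read pairs, with intervals from 1.49 to 4.95, 1.31 to 4.52 and 1.42 to 3.35. These 3 values also have the joint scaling, which at such distances includes pairs across the duplication that became more distant. No value with equal totals is given for them, so a gain of contact cannot be read from them. In *Inv1*, 2 of the 3 lowest bins lay in *Btrc* just before the inversion, at 0.51 (0.416 to 0.626) and 0.545 (0.447 to 0.664), and the third, 0.564, and the 3 highest, 1.63 to 1.87, lay in the flanks, with an interval from 0.973 to 3.41 for 1 of these. In *Inv2*, the highest bins were 1.94 (1.61 to 2.34) and 1.9 (1.35 to 2.66), in the stretch between the enhancers and the telomeric breakpoint, and 1.76 near the telomeric end. Its lowest were 0.444 (0.353 to 0.559, in *Btrc*), 0.5 and 0.534, all in the TAD past the breakpoint.

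The genes whose pattern was most like that of *Tlx1* were its centromeric neighbours. Each of 27 genes outside the rearrangements was described by its 10 log2 ratios with the TAD and the enhancers in the 5 mutant maps. *Kazald1* was nearest, at a Euclidean distance of 0.42 on the log2 scale, followed by *Sfxn3* at 0.52 and *Pdzd7* at 0.55, whose starts lie at -74, -102 and -103 kb from that of *Tlx1*. In homozygous *Dup*, the log2 ratio with the TAD was 0.27 for *Tlx1* and 0.50, 0.59 and 0.58 for these genes. All 4 share the same maps, so their likeness is no independent evidence.

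*Tlx1* lay at no insulation minimum in any map. Insulation, the mean signal crossing a bin edge over 100 kb on either side relative to the map's median, had local minima 75 kb before the window start (-0.41 on the log2 scale) and 70 kb after it (-0.59) in the wild-type, with *Tlx1* between them at -0.01. In homozygous *Dup*, on the deposited LOIC scale, the second minimum was at 25 kb, the bin edge just before the breakpoint (-0.22). In *Inv2* it was at 105 kb, next to its breakpoint (-1.22). Heterozygous *Dup* had minima at both 25 kb (-0.27) and 65 kb (-0.22). Duplicated bins carry 2 times the signal in the homozygous *Dup* map, and its values rose past the breakpoint, to 0.70 at 110 kb. A shallow dip remained at 60 kb (-0.02). Insulation of a balanced *Dup* map was not computed, so no shift of a boundary can be read from these minima. At the window start itself the value was -0.01 in both homozygous *Dup* and *Inv1*, 0.04 in *Inv2*, -0.02 in heterozygous *Dup* and 0.03 in heterozygous *Inv1*.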

How the data were processed

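Capture Hi-C maps of 6 genotypes were analysed. Per the study's methods, the authors mapped reads to mm9 with HiCUP and Bowtie2 2.4.2, joined replicates, kept read pairs with a mapping quality of at least 30 and binned them at 5 kb. The deposited values are contact signal: balanced by the Knight-Ruiz (KR) method with Juicer 1.19.02 for the wild-type and inversions, and LOIC-normalised for *Dup*, with a copy number of 4 in the duplication and 2 elsewhere in the homozygote and 5 low-coverage bins removed. For heterozygous *Dup* no source used here states the copy number set. In its deposited map the bins of the duplication had 1.5 times the median total signal of the others. A further 3 deposited maps hold the authors' differences between mutant and wild-type and were not used.

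Each deposited value is a read pair count times 2 bin factors. Solving these factors gave whole read pairs for 100% of values within 0.01 in every map. The recovery and the ratios were tested on simulated data. Mutant maps were scaled together with the wild-type: each distance was scaled to the mean of both maps outside the rearranged interval, then the total there to 1000000. Ratios compare mean signal over all bin pairs of viewpoint and target, mutant over wild-type, with 95% counting intervals, and shares have Wilson intervals. Read pairs are PCR products without molecular identifiers, from which the authors removed duplicates with HiCUP. Replicates were merged, so intervals and counts cover counting error only. KR balancing fixes the total of a bin, so a gain of a bin at 1 place lowers it elsewhere. The expected ratio is the wild-type mean at the distances of the rearranged order, summed over copies. Genes are from GENCODE vM1; *Slf2*, *Twnk* and *Oga* are there as Fam178a, Peo1 and Mgea5. Gene partners are the bin with the start and the next bin into the gene.

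The genes named are *Lbx1*, *Btrc*, *Poll*, *Dpcd*, *Fbxw4*, *Fgf8*, *Slf2*, *Twnk* and *Oga*, the 3 genes with the most similar ratios, and the 3 highest and 3 lowest bins of each homozygous mutant. *Pax2*, the far bins of the wild-type and the scaling used for *Fgf8* in *Dup* were added after the data were seen. The members and lists were chosen with earlier results of these data known. Alternatives were the viewpoint, the scaling, unbalanced read pairs, a balanced *Dup* map and the interval ends. Python 3.11.15, numpy 2.4.6 and scipy 1.17.1 were used.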

Additional observations from a re-analysis of the deposited data

How the results depend on the processing

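No paired analysis was possible because replicates were merged before deposit, and leaving out a replicate was not run for the same reason. Of 22 alternatives for the TAD, 8 stayed within the counting interval of the value reported, as did 12 of 22 for the AER enhancers and 7 of 17 for *Fgf8*. Where that interval held 1, an alternative within it could lie on the other side of 1.

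Balancing the *Dup* maps turned the direction in the homozygote (TAD 0.851, AER 0.922) and the heterozygote (0.934, 0.995), and gave 0.42 for *Fgf8* in the homozygote. Equal totals in place of joint scaling turned homozygous *Inv1* (TAD 1.05, AER 1.08) and gave 1.31 for its *Fgf8*. They gave 1.25 for the AER and 1.15 for *Fgf8* in *Inv2*, and 0.987, 1.1 and 0.982 for the TAD, AER and *Fgf8* in heterozygous *Inv1*. Joint scaling gave 0.439 for *Fgf8* in homozygous *Dup*.

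Read pairs without balancing gave 1.32, 1.54 and 0.454 for the TAD, AER and *Fgf8* in homozygous *Dup*. In homozygous *Inv1* they gave 1.03, turned, 0.991 and 1.26. In *Inv2* the TAD was at 0.905 and *Fgf8* at 1.22. In heterozygous *Dup* the TAD was at 1.23 and *Fgf8* at 0.263, and in heterozygous *Inv1* the values were 0.936, 1.1 and 1.08, the last turned. With the TAD shortened by 25 kb at each end, its ratio was 1.25 in homozygous *Dup*, 0.719 in *Inv2*, 1.2 in heterozygous *Dup* and 0.881 in heterozygous *Inv1*. With the bin of the annotated start as viewpoint, the AER was at 1.05 in *Inv2* and, turned, at 0.973 in heterozygous *Dup* (101 read pairs), and the TAD at 0.891 in heterozygous *Inv1*. The causes were not tested.

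Of 24 profile shares, 17 lay outside their interval. With the start bin, the TAD share was 18.2% in the wild-type and homozygous *Inv1*, 22.1% in homozygous *Dup*, 15.3% in *Inv2*, 22.2% in heterozygous *Dup* and 17.7% in heterozygous *Inv1*, and the AER share 2% in *Inv2* and 1.86% in heterozygous *Dup*. By read pairs the TAD share was 21.3%, 25.7%, 21.5%, 19%, 26.8% and 19.7% in the wild-type, homozygous *Dup*, *Inv1* and *Inv2* and heterozygous *Dup* and *Inv1*, and the AER share 2.5%, 1.99% and 2.01% in homozygous *Dup*, homozygous *Inv1* and heterozygous *Inv1*.

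At a fold of 2 the higher and lower bins numbered 5 and 12 in homozygous *Dup*, 0 and 0 in *Inv1*, 0 and 2 in *Inv2*, 5 and 13 in heterozygous *Dup* and 1 and 2 in heterozygous *Inv1*, and by balancing 21 and 28 at a fold of 1.5 in homozygous *Dup*. Depth limits the *Fgf8* value of heterozygous *Dup*, which rests on 53 read pairs.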
